A study of Mus musculus with 7 samples.

Results

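Grhl1, Grhl2, Grhl3, Ovol1, Ovol2, Esrp1 and Esrp2 are 7 genes for epithelial regulators, chosen by name from the 38579 gene entries of a single expression table. Each had 1 entry. RNA had been sequenced from primary mammary cells that were sorted from CD1 mouse embryos late in gestation (E17.5), giving 7 libraries. CD24 and CD49f, surface proteins enriched on mammary epithelial stem and progenitor cells, defined 2 lineage-negative CD24+CD49f+ libraries and 2 lineage-negative CD24low stroma libraries. A Sox10-Venus fluorescent reporter together with the epithelial surface protein EpCAM defined 2 Sox10+EpCAM+ libraries and 1 library of EpCAM-negative stroma, titled as Sox10-negative and lineage-negative. The CD24+CD49f+ and Sox10+EpCAM+ fractions are both labelled fMaSC, for fetal mammary stem cells, which they enrich and do not isolate. The EpCAM-negative group therefore has no SD. The reporter is a label and not a perturbation, and no group carries a deletion or a treatment. The labels call the samples biological replicates but do not say whether embryos were pooled, so p-values measure the spread between these libraries. Levels of Epcam and of genes that differ between Sox10-bearing and other cells are partly set by the sort.

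Grainyhead-like (Grhl) proteins are transcription factors that bind the promoters and enhancers of epithelial adhesion and junction genes, and are known for skin barrier formation, wound repair and neural tube closure. Ovol proteins are zinc-finger transcription factors that mostly repress, and among their known targets are Zeb1 and other drivers of the mesenchymal state. Esrp proteins act a step later: they bind RNA and direct the epithelial choice of alternative exons, as in the epithelial form of the growth factor receptor Fgfr2. In the mammary gland these families belong to the epithelial ducts and not to the surrounding stroma.

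The values are FPKM, fragments per kilobase of transcript scaled to library size, which can be compared between genes per length. From the spacing of the lowest values, 23.1 M to 34.8 M fragments were estimated behind each library. On a 2 kb transcript 1 fragment was then worth 0.0144 to 0.0216 FPKM, and between 12790 and 13639 genes reached 1 FPKM. The 8 epithelial markers (Epcam, Cdh1, Krt8, Krt18, Krt5, Krt14, Cldn3 and Cldn7) summed to 360 to 923 FPKM in fMaSC libraries and to 3.98 to 8.08 FPKM in stroma libraries. The 8 fibroblast markers (Col1a1, Col1a2, Col3a1, Pdgfra, Pdgfrb, Dpt, Lum and Dcn) summed to 6453 to 7592 FPKM in stroma and to 47.0 and 76.6 FPKM in Sox10+EpCAM+ fMaSC, but to 2222 and 3440 FPKM in CD24+CD49f+ fMaSC. All 8 were detected in every library. The CD24+CD49f+ fraction thus held far more fibroblast RNA than the Sox10+EpCAM+ fraction. In sorted bulk samples, fewer cells of a type and less RNA per cell cannot be told apart. Fetal skin also uses these regulators, so 10 epidermal differentiation markers (Krt1, Krt10, Lor, Ivl, Flg, Krtdap, Sbsn, Dsg1a, Calm4 and Dsc1) were summed: they gave 3.96 to 8.69 FPKM in fMaSC and 9.16 to 18.9 FPKM in stroma. Krtdap (0.107 to 2.83 FPKM in fMaSC, 3.35 to 10.6 FPKM in stroma) and Sbsn (1.84 to 3.23 against 4.40 to 7.04 FPKM) carried that sum, and both were called lower in the pooled fMaSC against stroma fit described below. Krt10 measured 1.22 to 2.01 FPKM in fMaSC and 0.987 to 1.35 FPKM in stroma, with a pooled fold of 0.30 (limma, adjusted p = 0.189). The other 7 were below 1 FPKM in every library and were not tested; of these Krt1 (0.105 to 0.322 against at most 0.0291 FPKM) and Calm4 (0.107 to 0.224 against 0 FPKM) had higher values in fMaSC.

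Promoter sequences (GRCm38.p6, RefSeq, 250 bases before to 50 after the start site, 5′ to 3′ on the gene's strand) were at hand for 3 of the 7 genes. They are shown because these genes were higher in fMaSC in both sorts, and because Grhl3 and Grhl1 are relatives whose promoters differ in composition. Capitals mark CACCTG, the E2-box letters that Snai and Zeb repressors are known to bind. Grhl1 (chr12:24572037-24572336, plus strand), Grhl3 (chr4:135573583-135573882, minus strand) and Ovol2 (chr2:144331313-144331612, minus strand) read as follows.
Grhl1: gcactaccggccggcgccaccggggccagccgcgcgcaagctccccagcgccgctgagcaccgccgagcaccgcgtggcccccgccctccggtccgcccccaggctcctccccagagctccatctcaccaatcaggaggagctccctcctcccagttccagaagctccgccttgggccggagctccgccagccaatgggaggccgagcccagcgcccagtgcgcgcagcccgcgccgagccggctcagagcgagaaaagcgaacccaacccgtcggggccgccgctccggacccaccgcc
Grhl3: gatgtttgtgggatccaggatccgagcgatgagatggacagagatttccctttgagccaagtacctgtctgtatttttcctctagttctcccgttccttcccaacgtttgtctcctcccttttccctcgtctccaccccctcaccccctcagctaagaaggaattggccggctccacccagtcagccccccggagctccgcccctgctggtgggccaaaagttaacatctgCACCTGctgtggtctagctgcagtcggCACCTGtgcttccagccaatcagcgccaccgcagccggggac
Ovol2: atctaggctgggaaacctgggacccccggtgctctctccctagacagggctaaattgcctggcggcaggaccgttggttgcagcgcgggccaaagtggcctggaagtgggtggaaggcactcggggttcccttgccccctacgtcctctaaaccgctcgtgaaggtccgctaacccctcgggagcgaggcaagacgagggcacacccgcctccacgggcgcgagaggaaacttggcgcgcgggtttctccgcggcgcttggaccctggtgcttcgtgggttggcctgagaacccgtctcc
The Grhl1 promoter had 75.3% G and C and 35 CpG dinucleotides. The Ovol2 promoter had 65.7% and 25, and the Grhl3 promoter 58.3% and 12, against a median of 52.7% G and C over 32851 promoters. CACCTG, searched on both strands, stood in the Grhl3 promoter beginning 19 bases before and 8 bases after the start site, and in neither of the others. It occurs in 20.2% of all promoters of this length. The Grainyhead letters AACCGGTT (0.146% of all promoters), their looser form AACNNGTT (4.20%, which includes every AACCGGTT) and the Ovol core CCGTTA (2.76%) were also searched on both strands. None of these 3 was in the windows of Grhl1, Grhl3 or Ovol2. A second Grhl1 start site (chr12:24580469-24580768) had 51.3% G and C and 0 CpG, and no match to any of the 4 motifs. These letters were counted and no binding was measured.

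Expression of the Grhl family was led by Grhl2 and Grhl3 in the fMaSC fractions and by Grhl1 in stroma. Grhl2 (ENSMUSG00000022286, chr15:37233036-37363569, GRCm38) is the family member best known for Cdh1 and claudin control. It measured 11.7 and 12.1 FPKM in Sox10+EpCAM+ fMaSC and 4.68 and 5.85 FPKM in CD24+CD49f+ fMaSC. In CD24low stroma it was at 0.207 and 0.0585 FPKM, and in the EpCAM-negative library at 0.125 FPKM. The lowest fMaSC library thus stood far above the highest stroma library, with a gap between both fMaSC fractions as well. Gm16136, a gene on the opposite strand whose exons overlap those of Grhl2, measured 13.9, 9.80, 9.81 and 5.20 FPKM in the same 4 fMaSC libraries and 0.0470 to 0.350 FPKM in stroma. Whether counting used strand is not given in the sources used here, so reads of such a pair cannot be told apart. Exons of 5 of the 7 genes overlap a gene on the opposite strand, which holds also for Ovol1 (Gm31166 and AC126029.1), Ovol2 (1700108N11Rik), Esrp1 (Gm26663) and Esrp2.

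Grhl3 (ENSMUSG00000037188, chr4:135541888-135573630), known for epidermal barrier formation and neural tube closure, measured 9.01 and 11.0 FPKM in Sox10+EpCAM+ fMaSC. It measured 3.08 and 3.74 FPKM in CD24+CD49f+ fMaSC. Stroma libraries held 0.0253 and 0.0305 FPKM (CD24low) and 0 (EpCAM-negative), roughly 2, 2 and 0 fragments. Grhl3 was near or below detection in stroma, and its Sox10+EpCAM+ values did not overlap the CD24+CD49f+ values. Grhl2 exceeded Grhl3 in each fMaSC library, by 1.11 to 1.56 times.

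Grhl1 (ENSMUSG00000020656, chr12:24572287-24617391), which is known for desmosome genes in skin, was the least fMaSC-restricted of the 7 by ratio. It measured 3.07 and 4.03 FPKM in Sox10+EpCAM+ fMaSC and 2.48 and 1.76 FPKM in CD24+CD49f+ fMaSC. CD24low stroma held 0.537 and 0.565 FPKM and the EpCAM-negative library 0.408 FPKM, about 51.5, 45.2 and 36.3 fragments. The groups still did not overlap, but Grhl1 in stroma was 25.9% of its fMaSC mean in the CD24 sort and 11.5% in the Sox10 sort. Cdh1, the epithelial cadherin, was at 1.14% and 1.09%.

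Ovol1 was the second most abundant of the 7 in both fMaSC fractions, and Ovol2 the least. Ovol1 (ENSMUSG00000024922, chr19:5549137-5560575), known for the exit of epithelial progenitors from the cell cycle, measured 19.5 and 24.5 FPKM in Sox10+EpCAM+ fMaSC and 10.2 and 8.73 FPKM in CD24+CD49f+ fMaSC. It was at 0.146, 0.146 and 0.276 FPKM in the 2 CD24low libraries and the EpCAM-negative library. Its fMaSC and stroma values were far apart, and the 3 stroma libraries were all low. Ovol2 (ENSMUSG00000037279, chr2:144305175-144332146), known for repressing Zeb1, measured 2.74 and 2.03 FPKM in Sox10+EpCAM+ fMaSC and 0.949 and 1.33 FPKM in CD24+CD49f+ fMaSC. It was listed at 0, 0.0292 and 0 FPKM in stroma, about 1 fragment in all. Ovol1 stood 6.55 to 12.1 times above Ovol2 across the 4 fMaSC libraries.

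Esrp1 was the most abundant of the 7 in both fMaSC fractions. Esrp1 (ENSMUSG00000040728, chr4:11331933-11386783) measured 29.6 and 33.7 FPKM in Sox10+EpCAM+ fMaSC and 15.1 and 17.9 FPKM in CD24+CD49f+ fMaSC. It measured 0.103, 0.0792 and 0.202 FPKM in stroma (CD24low 1 and 2, then EpCAM-negative), so that every fMaSC library was far above every stroma library. Esrp2 (ENSMUSG00000084128, chr8:106130319-106136974), a paralog with overlapping splicing targets, measured 18.7 and 18.7 FPKM in Sox10+EpCAM+ fMaSC and 8.97 and 7.95 FPKM in CD24+CD49f+ fMaSC. The Esrp1 to Esrp2 ratio was 1.58, 1.80, 1.68 and 2.25 in these libraries. In stroma Esrp2 was uneven, at 0.386 and 0.0120 FPKM in the CD24low replicates and 0.662 FPKM in the EpCAM-negative library, about 37.7, 1.0 and 60.2 fragments. Its exons overlap, on the opposite strand, those of Nfatc3, which measured 8.03 to 14.1 FPKM in all 7 libraries. They also overlap those of 1810019D21Rik, at 0.0411, 0.0493 and 0.400 FPKM in the same 3 stroma libraries, and their part in the Esrp2 values was not tested.

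**Figure D1:**
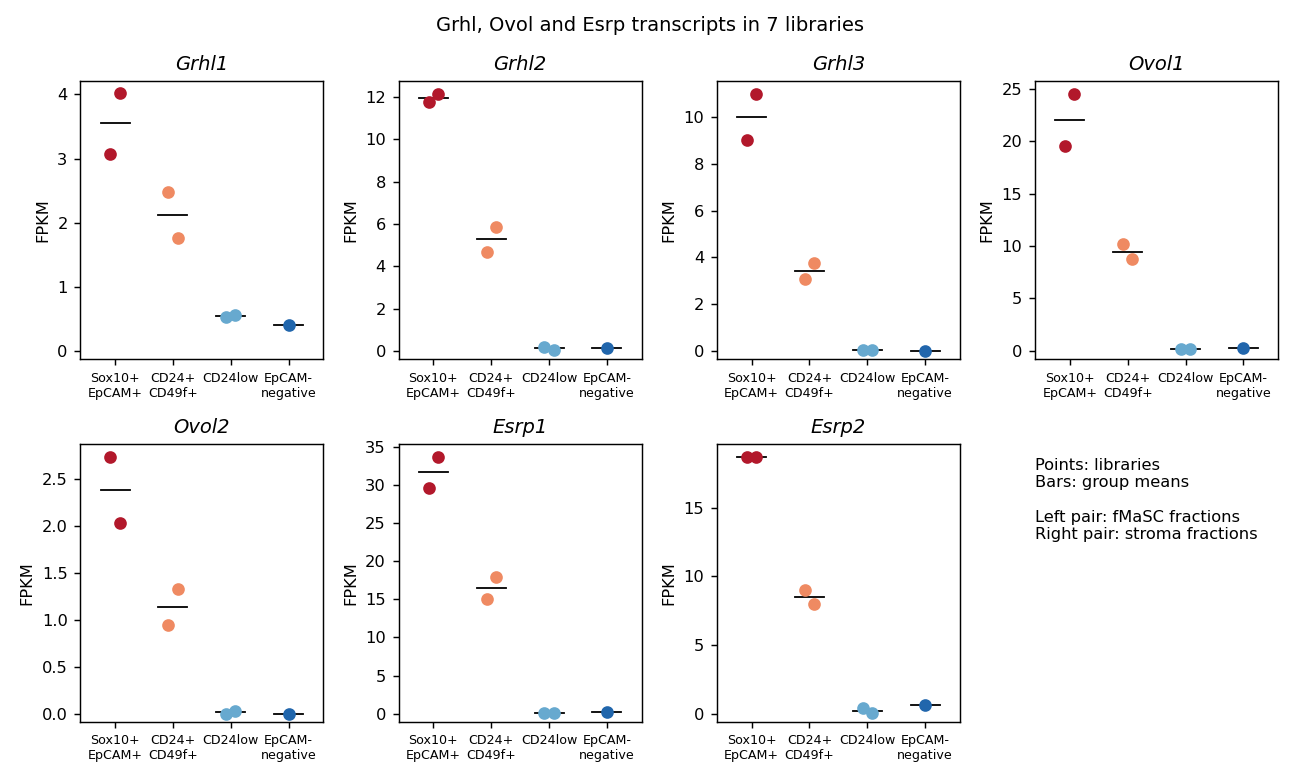
FPKM of each of the 7 genes on linear axes, with a point per library and a bar at the group mean, in Sox10+EpCAM+ fMaSC, CD24+CD49f+ fMaSC, CD24low stroma and EpCAM-negative stroma. In each panel both fMaSC fractions lie above all 3 stroma libraries and the Sox10+EpCAM+ points lie above the CD24+CD49f+ points.

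The order of mean levels was the same in both fMaSC fractions: Esrp1, Ovol1, Esrp2, Grhl2, Grhl3, Grhl1 and Ovol2. Means fell from 31.7 ± 2.93 FPKM for Esrp1 to 2.38 ± 0.502 FPKM for Ovol2 in Sox10+EpCAM+ fMaSC (SD, n = 2), where no neighbours in the order overlapped. In CD24+CD49f+ fMaSC they fell from 16.5 ± 1.98 FPKM to 1.14 ± 0.271 FPKM (SD, n = 2), and Ovol1 (8.73 and 10.2 FPKM) overlapped Esrp2 (7.95 and 8.97 FPKM). The order did not carry over to stroma: Grhl1 came first in CD24low stroma (0.551 ± 0.0198 FPKM, SD, n = 2), and Esrp2 first in the EpCAM-negative library. Summed by family, the 2 Esrp genes gave 24.0 to 52.4 FPKM in the 4 fMaSC libraries, the 2 Ovol genes 10.1 to 26.5 FPKM and the 3 Grhl genes 10.2 to 27.2 FPKM. With such small groups an exact permutation test of 2 libraries against 2 could not go below p = 0.333, so limma was used.

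All 7 genes were higher in fMaSC than in stroma within the CD24 and CD49f sort. limma was fitted to log2(FPKM + 1) of the 14418 genes that reached 1 FPKM in 2 or more libraries, over all 4 groups, and p-values were adjusted by Benjamini-Hochberg over those genes. Fold changes on this scale understate the change of low genes. Esrp1 was higher by 4.00 on the log2 scale (95% interval 3.58 to 4.41, adjusted p = 0.000356) and Ovol1 by 3.19 (adjusted p = 0.000495). Esrp2 (3.00), Grhl2 (2.46) and Grhl3 (2.10) followed, with adjusted p-values of 0.000832, 0.000955 and 0.00161. Ovol2 (1.07, adjusted p = 0.0176) and Grhl1 (1.00, adjusted p = 0.0267) had the smallest folds. Over all genes tested, 7.78% were called higher in this comparison. No gene of the 7 reached 1 FPKM in a stroma library, so each entered the test through its fMaSC libraries, and the count of 7 of 7 follows in part from that filter. The calls of Grhl1 and Ovol2 ended without the filter, under quantile or TPM scaling, and without either CD24low library, while the other 5 calls held. Grhl1 lost its call in 9 of the 13 alternatives that tested it, and Ovol2 in 5 of 12.

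The Sox10 and EpCAM sort gave the same directions for the 7 genes. Folds ran from 1.68 for Grhl1 (95% interval 1.11 to 2.26, adjusted p = 0.00425) and 1.75 for Ovol2 (adjusted p = 0.00297) to 4.17 for Ovol1 (adjusted p = 0.000276) and 4.76 for Esrp1 (adjusted p = 0.000260). Grhl3 (3.45), Grhl2 (3.52) and Esrp2 (3.57) lay between. All 7 genes were called higher, against 12.5% of all genes tested. As in the CD24 sort, that count follows in part from the filter. Only Grhl1 lost its call in any of the alternatives run, under TPM scaling. The stroma side is a single library, whose spread was taken from the other groups. The difference between the sorts in the fMaSC-stroma fold was itself tested: limma called 0 of the 7 genes, with 4 (Grhl2, Grhl3, Ovol1 and Esrp1) at an unadjusted p under 0.05 and 1.51% of all genes called in either direction. Its largest value was 1.36 for Grhl3 (95% interval 0.68 to 2.03, adjusted p = 0.0929).

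In the pooled fit of both sorts, with the sorting strategy as a covariate, the 7 genes were again called higher, against 15.6% of all genes. Folds ran from 1.27 for Grhl1 (adjusted p = 0.00625) to 4.30 for Esrp1 (adjusted p = 9.06e-05), with a median of 2.89 against 0.12 over all genes. Every fMaSC library was above every stroma library for 7 of the 7, which held for 23.3% of all genes tested. The calls and this separation follow in part from the filter, which the 7 genes passed only through their fMaSC libraries. The 7 pooled calls remained in each alternative run. Between the 2 stroma fractions limma called 0 of the 7 genes, none had an unadjusted p under 0.05, and 0.0277% of all genes were called. The 95% intervals of these differences reached from −0.72 (Grhl1) to 1.09 (Esrp2) on the log2 scale, so differences within each gene's own interval are not excluded. The EpCAM-negative side is a single library.

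**Figure D2:**
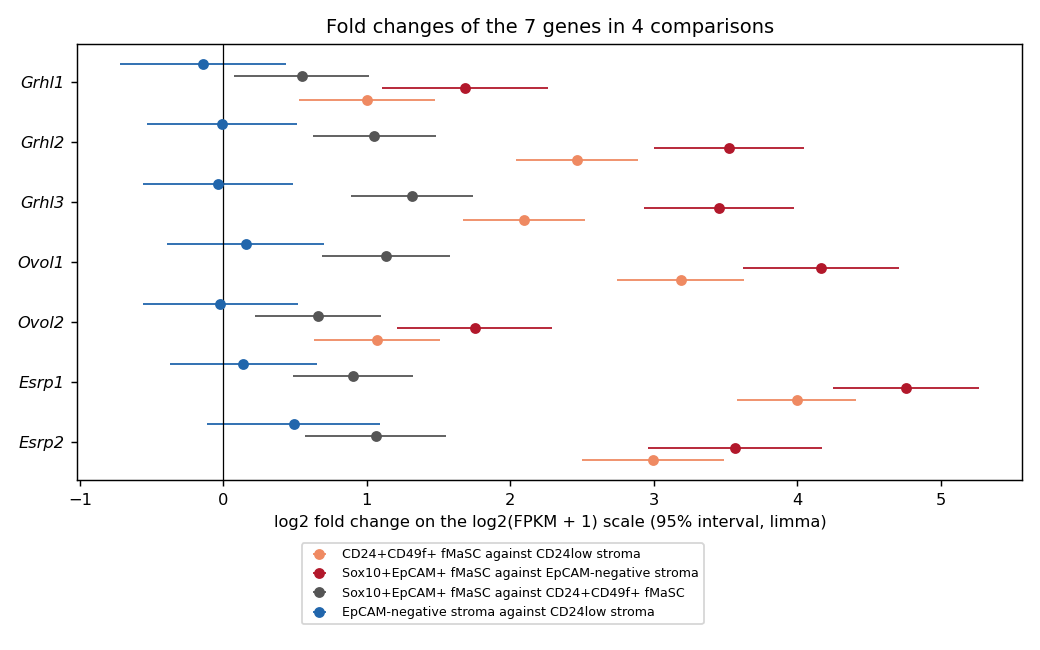
log2 fold change on the log2(FPKM + 1) scale with 95% limma intervals (bars) for the 7 genes in 4 comparisons, by colour. The fMaSC-stroma folds lie between 1.00 and 4.76, the folds between both fMaSC fractions between 0.54 and 1.32, and each interval between both stroma fractions spans 0.

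The level left in stroma was compared with that of 8 epithelial markers. In the CD24 sort, stroma held 0.554% (Esrp1) to 2.52% (Grhl2) of the fMaSC mean for the 6 genes other than Grhl1, and the epithelial markers held 0.284% (Krt5) to 5.60% (Cldn3). In the Sox10 sort Esrp1 was at 0.637%, Grhl2 at 1.04%, Ovol1 at 1.25% and Esrp2 at 3.54%, with Grhl3 and Ovol2 listed at 0. The markers held 0.528% to 2.18% there. The CD24 sort values of 3 genes rest on 1 CD24low library: with replicate 1 or replicate 2 alone Esrp2 was at 4.56% or 0.141%, Grhl2 at 3.93% or 1.11%, and Ovol2 at 0 or 2.56%. Esrp1, Ovol1, Ovol2, Grhl2 and Grhl3 thus lay within the range of these markers or were listed at 0 by group mean, whereas Grhl1 lay above it in both sorts and Esrp2 in the Sox10 sort. In the CD24 sort Cldn3 alone set the upper end of the range, with Cldn7 next at 1.34%. Grhl2 (2.52%), Esrp2 (2.35%) and Ovol1 (1.54%) lay between Cldn7 and Cldn3 there. No test was made of these ratios, and the residual epithelial RNA in stroma was not measured apart from the markers.

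**Figure D3:**
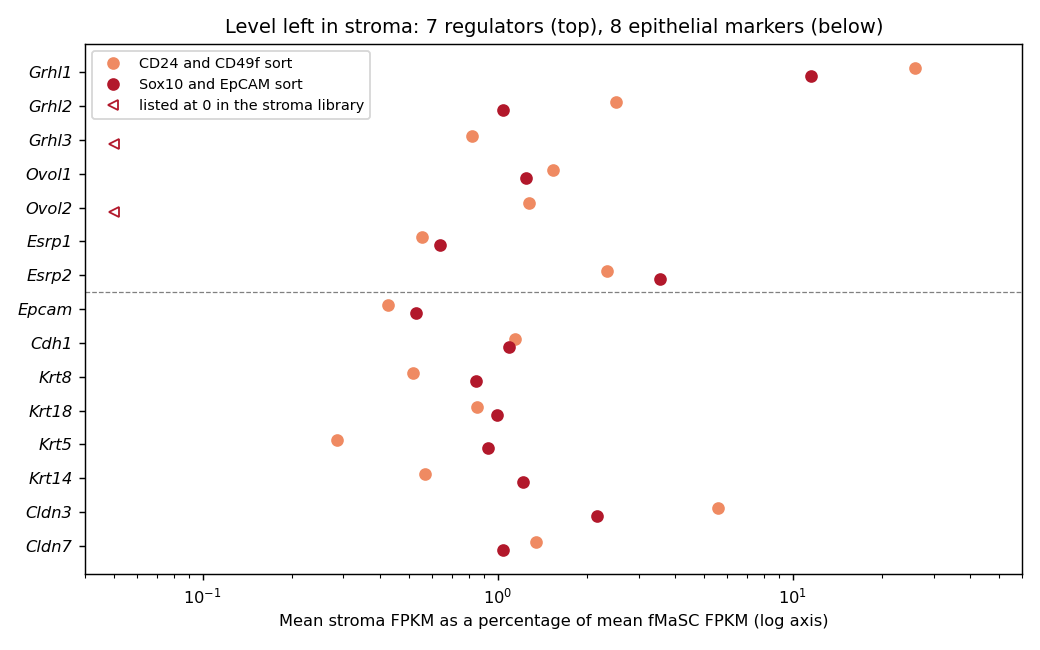
Mean stroma FPKM as a percentage of mean fMaSC FPKM on a log axis, for the 7 genes (top) and 8 epithelial markers (below), by sort; open triangles are genes listed at 0 in the single EpCAM-negative library and are placed at the left edge. Grhl1 sits at 25.9% and 11.5%, to the right of each marker.

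Between the fMaSC fractions, all 7 genes were higher in Sox10+EpCAM+ cells and 5 passed the test. limma on log2(FPKM + 1) called Grhl3 (1.32, 95% interval 0.89 to 1.74, adjusted p = 0.00872), Ovol1 (1.13, adjusted p = 0.0166), Grhl2 (1.05, adjusted p = 0.0183), Esrp1 (0.90, adjusted p = 0.0285) and Esrp2 (1.06, adjusted p = 0.0292). Ovol2 was at 0.66 (adjusted p = 0.0790) and Grhl1 at 0.54 (adjusted p = 0.154). Over all genes tested, 1.95% were called higher in Sox10+EpCAM+ fMaSC. Both Sox10+EpCAM+ libraries were above both CD24+CD49f+ libraries for 7 of the 7 genes, which held for 21.2% of all genes. None of the 5 calls survived leaving out either Sox10+EpCAM+ library (0 called, 6 genes at an unadjusted p under 0.05 each time). TPM scaling, which moved the median of all genes from −0.01 to −0.22, also called 0 (Grhl3 alone at an unadjusted p under 0.05), with the 7 folds between 0.36 and 1.08. Over all genes, 13 were called higher under TPM scaling, against 281 in the main fit.

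Markers of epithelium and of other cell types moved with this difference. As a ratio of mean FPKM, Sox10+EpCAM+ over CD24+CD49f+ fMaSC, the 7 genes gave 1.67 (Grhl1), 1.92 (Esrp1), 2.09 (Ovol2), 2.21 (Esrp2), 2.27 (Grhl2), 2.33 (Ovol1) and 2.93 (Grhl3). The 8 epithelial markers gave 1.38 to 2.03, with Cdh1 at 2.03, and the 8 fibroblast markers 0.0144 to 0.157. All 8 fibroblast markers and 5 of 5 adipocyte markers were called lower in Sox10+EpCAM+ fMaSC, against 8.04% of all genes, as were 4 of 6 endothelial markers (Pecam1, Cdh5, Tek and Tie1). The adipocyte markers summed to 12.8 and 18.3 FPKM in Sox10+EpCAM+ and to 227 and 549 FPKM in CD24+CD49f+ fMaSC, and the endothelial markers to 2.76 and 3.49 against 13.9 and 18.9 FPKM. The part of these cell types in the difference was not tested.

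Levels were therefore also set against Cdh1 within each library, a choice made after the values were seen. Esrp1 was at 60.6% and 55.9% of Cdh1 in Sox10+EpCAM+ fMaSC and at 63.7% and 59.3% in CD24+CD49f+ fMaSC, so the fractions overlapped. Ovol1 (40.0%, 40.6% against 43.1%, 29.0%), Esrp2, Ovol2 and Grhl1 overlapped too. Grhl3 did not: it was at 18.4% and 18.2% of Cdh1 in Sox10+EpCAM+ fMaSC and at 13.0% and 12.4% in CD24+CD49f+ fMaSC. Grhl2 was just apart, at 24.0% and 20.1% against 19.8% and 19.4%. Set against the geometric mean of the 8 epithelial markers, Grhl3 stayed apart at 11.4% in both Sox10+EpCAM+ libraries against 5.48% and 9.33%. Grhl2 then overlapped, Ovol1 was higher in Sox10+EpCAM+ fMaSC without overlap (24.8% and 25.4% against 18.1% and 21.8%), and Grhl1 was lower (3.90% and 4.18% against 4.42% and 4.40%). These ratios were not tested.

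**Figure D4:**
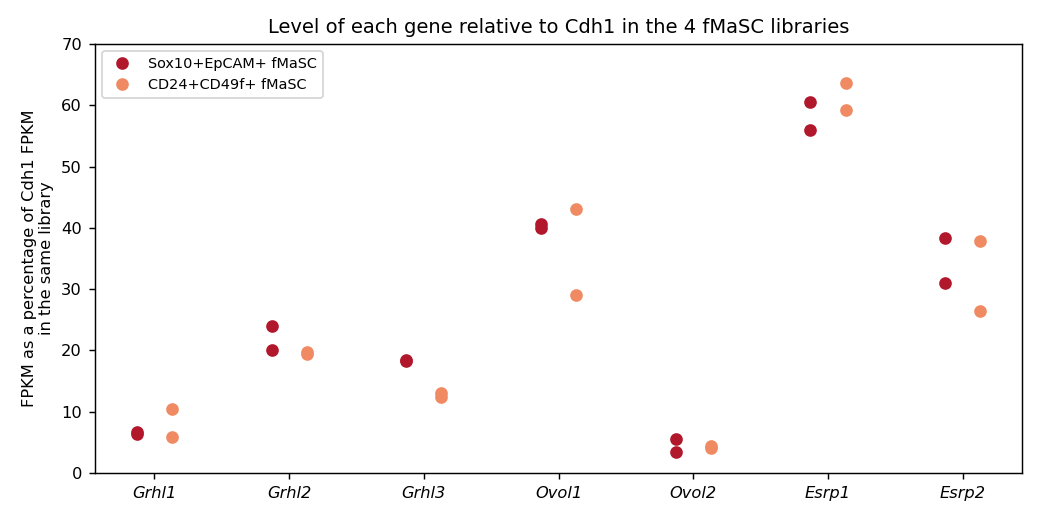
FPKM of each of the 7 genes as a percentage of Cdh1 FPKM in the same library, with a point for each of the 2 Sox10+EpCAM+ and 2 CD24+CD49f+ fMaSC libraries. Grhl3 values do not overlap between the fractions (18.2% and 18.4% against 12.4% and 13.0%) and Esrp1 values do (55.9% to 63.7% over all 4 libraries).

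Of the more distant relatives of Grhl, Ubp1 and Tfcp2 were tested, and neither passed in the pooled fit after adjustment. Both had an unadjusted limma p under 0.05 there, with folds of opposite sign. Ubp1, a widely expressed factor of the same superfamily, measured 16.0 to 19.3 FPKM in fMaSC and 9.96 to 14.2 FPKM in stroma, and its pooled fold of 0.45 did not pass (adjusted p = 0.0813). Tfcp2 measured 1.79 to 3.27 FPKM in fMaSC and 2.81 to 4.88 FPKM in stroma, with a pooled fold of −0.57 (adjusted p = 0.106). In the Sox10 sort alone it fell by 1.04 (adjusted p = 0.0399). Tfcp2l1, at 0.476 to 1.39 FPKM in fMaSC and 0.0351 to 0.145 FPKM in stroma, was too low to be tested. No entry was named Ovol3.

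Epithelial genes linked to Grainyhead factors, not all of them as targets, were mostly higher in fMaSC too. Of 18 such genes 17 were tested, and in the pooled comparison 16 were higher and 0 lower, with a median of 2.92 and 15.6% of all genes called higher. Epcam led at 6.42, followed by the claudins Cldn4 (5.38) and Cldn7 (5.14), which seal tight junctions, and Cdh1 (4.69). Pvrl1, a nectin, was at 0.67 (adjusted p = 0.0633), and Tgm5 was too low to be tested. Within the CD24 sort 14 were higher (7.78% of all genes) and within the Sox10 sort 15 (12.5%). Between the fMaSC fractions 8 were higher in Sox10+EpCAM+ cells (1.95%), with 0 lower each time. In stroma 4, 4 and 6 of the 18 reached 1 FPKM (CD24low 1 and 2, then EpCAM-negative), against 17 in each fMaSC library. Most of the list thus entered the test through fMaSC libraries, and its fMaSC-stroma counts follow in part from that filter. Epcam is a sorting marker of the Sox10 sort and 4 of the 18 (Epcam, Cdh1, Cldn3 and Cldn7) are also among the epithelial markers above.

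Of 10 mesenchymal genes that Ovol or Grhl2 factors are known to hold down, 4 were lower in all fMaSC than in all stroma, 5 did not pass and 1 was higher, with 9.5% of all genes called lower. The 4 were Fn1, the matrix protein fibronectin (−2.77), and the transcription factors Twist2 (−2.76), Twist1 (−2.48) and Zeb1 (−2.47). Snai2, known in mammary basal cells, was higher (0.88, adjusted p = 0.0112), at 31.1 FPKM or more in each fMaSC library against 19.9 to 21.2 FPKM in stroma. Within the Sox10 sort 9 of the 10 were lower, with 13.6% of all genes called lower, and within the CD24 sort 1 (Twist1, −0.97), with 2.94% of all genes. The difference between the sorts passed for 4 of the 10 (Prrx1, Twist1, Twist2 and Cdh2), all with a more negative fold in the Sox10 sort. It passed for 1.51% of all genes, 207 with a lower fold in the Sox10 sort and 11 with a higher one. Between the fMaSC fractions 8 of the 10 were lower in Sox10+EpCAM+ than in CD24+CD49f+ fMaSC (8.04% of all genes). The fibroblast markers moved with these counts, with 8 of 8 lower within the Sox10 sort and 4 of 8 (Pdgfrb, Dpt, Lum and Dcn) within the CD24 sort, and their part was not tested.

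Of 12 genes whose transcripts Esrp proteins splice, 4 were higher in all fMaSC than in all stroma and 0 lower in total level, where 15.6% of all genes were called higher and 9.5% lower. The other 8 did not pass, and the list had a median of 0.03 against 0.12 over all genes. Fgfr2, the receptor whose epithelial exon Esrp proteins favour, was higher by 1.25 (adjusted p = 0.00994), at 28.7 to 63.0 FPKM in fMaSC and 17.6 to 18.5 FPKM in stroma. Scrib (0.94), a polarity protein, Ralgps2 (0.93) and Magi1 (0.78), a junction scaffold, were the others. Cd44, a hyaluronan receptor with spliced variable exons, was at −0.79 (adjusted p = 0.0508). Gene-level FPKM does not show which exons were used, so splice forms were not measured. In the CD24 sort limma called 0 of the 12 (4 at an unadjusted p under 0.05). There 7.78% of all genes were called higher and 2.94% lower. In the Sox10 sort 2 were called higher (Fgfr2 1.66 and Ralgps2 1.05) and 1 lower (Cd44, −1.20). Over all genes, 12.5% were called higher and 13.6% lower in that sort.

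Other splicing regulators had pooled folds below those of Esrp1 and Esrp2. Of 9 tested, 3 were higher in all fMaSC and 1 lower, where 15.6% of all genes were called higher and 9.5% lower. Those higher were Rbm47 (1.44, adjusted p = 0.0231), an epithelial RNA-binding protein, Mbnl3 (1.08) and Ptbp2 (0.46). Mbnl1 was lower (−0.74, adjusted p = 0.0157), and Celf2, at −0.85 (adjusted p = 0.0665), did not pass. Rbm47 measured 4.92 to 14.6 FPKM in fMaSC and 2.00 to 3.33 FPKM in stroma, so no fMaSC library overlapped a stroma library. The pooled folds of Esrp1 (4.30) and Esrp2 (3.22) were both above that of Rbm47, without a test between genes.

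**Figure D5:**
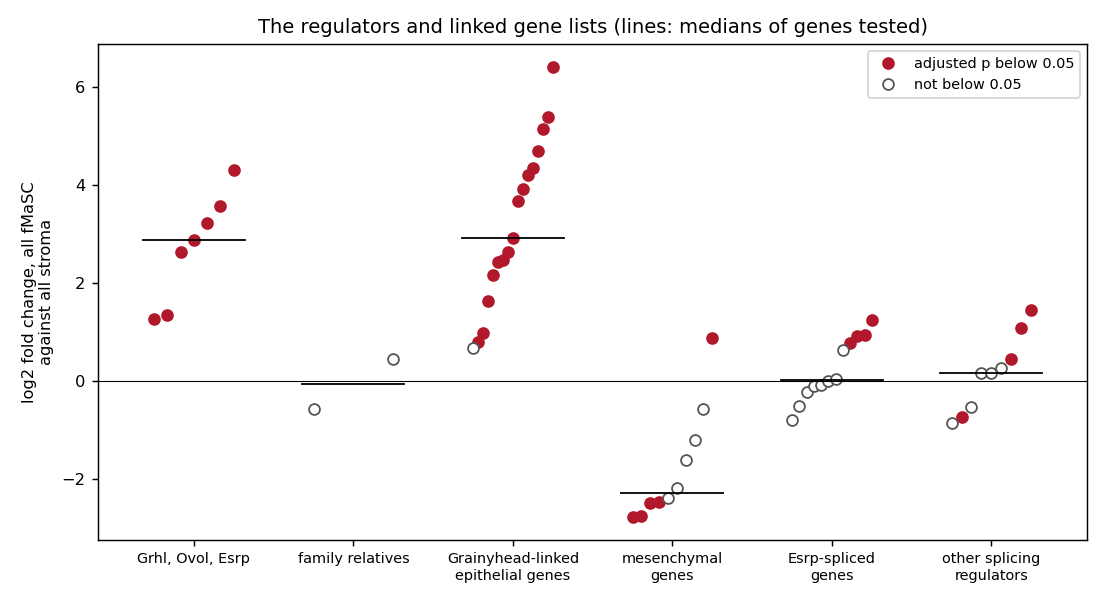
log2 fold change of all fMaSC against all stroma on the log2(FPKM + 1) scale for the 7 regulators and 5 linked gene lists, a point per gene tested, filled where the adjusted p was below 0.05, with lines at list medians. The regulators and the Grainyhead-linked genes have medians of 2.89 and 2.92, and the Esrp-spliced genes of 0.03.

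The genes with the most similar profiles were found as the root mean square difference of centred log2(FPKM + 1) over the 7 libraries, among tested genes with established symbols. For Esrp1 these were Cxadr (0.0688) and Tgfa (0.101), and for Esrp2 Serinc2 (0.140) and Arhgdib (0.156). Ovol1 was nearest to Ocln (0.0974) and Mal2 (0.114), and Ovol2 to Pou2f3 (0.0546) and Ubald1 (0.0982). Grhl1 was nearest to Cldn23 (0.0621) and Slc5a8 (0.0862), Grhl2 to Dusp6 (0.0981) and Prrg4 (0.109), and Grhl3 to Plch2 (0.159) and Fermt1 (0.163). Fermt1, which anchors epithelial cells to the basement membrane, is also one of the 18 Grainyhead-linked genes. Ocln was near Ovol1 in level too. It measured 18.0, 20.2, 9.53 and 7.40 FPKM in the 4 fMaSC libraries, in the order used for Ovol1 above. In stroma it was at 0.0292, 0.0527 and 0.334 FPKM. The pseudocount of 1 compresses low values, so near profiles can differ in the share left in stroma. Ubald1 measured 17.6 to 31.5 FPKM in fMaSC and 8.22 to 9.15 FPKM in stroma, where Ovol2 was at 0 to 0.0292 FPKM. Dusp6 and Arhgdib also held at least 12.8 and 5.18 FPKM in each stroma library. The other near genes named were at 1.29 FPKM or less in stroma. The 7 libraries share their 4 groups, so this likeness is a description.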

How the data were processed

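Libraries came from Illumina TruSeq RNA kits and were read as paired ends, per the labels' protocols. STAR, Cufflinks and the build GRCm38 (mm10) are named, without versions, in the submitters' processing notes. The authors deposited 1 FPKM column for each library, per the file headers, and no counts were used. Depth was estimated from FPKM values of few fragments; 76.7% to 81.9% came within 0.15 of a whole fragment, which leaves depth and fragment numbers approximate. The column of Sox10+EpCAM+ replicate 1 names lineage-negative sorting and its label does not. The 8 added sequences were left out.

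FPKM was transformed with a pseudocount of 1, and genes with 1 FPKM or more in 2 libraries were kept. limma 3.58.1 (R 4.3.3) fitted 4 group means with a variance trend, or cell type and strategy for the pooled comparison, two-sided, with Benjamini-Hochberg adjustment and a threshold of 0.05. All 7 genes passed the filter. The genes and lists were chosen with earlier results of these data known. Named genes were the 7 regulators, their relatives, the 4 largest pooled folds of each list, any gene a count of 5 or fewer needs and the 2 nearest profiles per regulator; others were named after their values were seen. On simulated data 200 of 13864 genes were changed. Of those changed by 3 (log2), 90% were recovered in the CD24 sort, 74% in the Sox10 sort and 94% pooled. Of those changed by 1 (log2), 23%, 1% and 49% were recovered. More genes were called in the measured data (1121 higher and 424 lower in the CD24 sort), so these shares may not carry over. Alternatives were a pseudocount of 0.1, no filter, TPM or quantile scaling, no trend, only the compared libraries and leaving out each library. Python 3.11.15, pandas 2.3.3 and matplotlib 3.10.9 made tables and figures. Marker lists of some other cell types are not reported here.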

Additional observations from a re-analysis of the deposited data

How the results depend on the processing

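In the pooled comparison all 7 genes remained called in each alternative, and no fMaSC-stroma fold of the 7 genes changed sign in any. The CD24 sort gave 5 calls without the filter on low values, under TPM and quantile scaling and with only its own libraries (where Ovol2 was not tested), and 5 to 7 when each library was left out; the calls lost were those of Grhl1 and Ovol2. The Sox10 sort gave 6 under TPM scaling and 7 otherwise. Between the fMaSC fractions, 5 calls became 3 with a pseudocount of 0.1, 1 without the filter (Grhl3) and 0 under TPM scaling, and 0 to 5 when each library was left out; 0 calls were left without Sox10+EpCAM+ replicate 1 or replicate 2. Leaving out the EpCAM-negative library, an alternative added after the data were seen, left 7, 7 and 5 calls in the CD24 sort, pooled and between fMaSC fractions. Signs turned only in values near 0 or far from the threshold: Grhl2 between the stroma fractions, −0.0071, became 0.0268 with a pseudocount of 0.1, 0.0132 under TPM scaling and −0.102 to 0.0874 when a library was left out (0.0874 without CD24low replicate 1), and the difference between the sorts for Esrp2, 0.57, became −0.57 with a pseudocount of 0.1. The cause was not tested. TPM scaling moved the median of all genes from 0.09 to −0.60 in the Sox10 sort and from 0.12 to −0.31 pooled. Of genes called in either direction, the share called higher was 72.6% in the CD24 sort (52.6% under quantile scaling), 47.9% in the Sox10 sort (26.4% under TPM scaling), 62.2% pooled (44.7% under either) and 19.5% between fMaSC fractions (3.02% under TPM, 39.2% under quantile scaling). Counts of the linked gene lists were not recomputed under the alternatives. No paired analysis was possible because the labels give the groups no shared replicate numbers. Depth limits the stroma values of Grhl3 and Ovol2 most, at 0 to 2 fragments each, and that of Esrp2 in CD24low replicate 2, at about 1 fragment.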
